A study of Drosophila melanogaster with 6 samples.

Results

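RNA immunoprecipitation with an antibody against Lsd1 was compared with immunoprecipitation with IgG in ovary lysate of Drosophila melanogaster. The comparison used 4 of the 6 libraries of the series, namely the Lsd1 and IgG libraries of experiments 1 and 2. They were chosen by the antibody and the experiment named in the sample titles, and each Lsd1 library was set against the IgG library of its own experiment. All groups came from wild-type Oregon-R ovaries. In each experiment the ovaries of about 200 females, collected within 12 hours of eclosion, were pooled and lysed, and the lysate was divided among the Lsd1, Bre1 and IgG antibodies. A library therefore stands for a pool of animals, and there is 1 library per antibody in each experiment. The stated purpose of the series was to survey noncoding RNAs associated with Lsd1 or Bre1 complexes, with IgG as the background for each transcript. The Bre1 libraries entered the fit, where they share in the estimate of the spread, and are otherwise used here only where a result needs them.

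Lsd1, encoded by Su(var)3-3 in the fly, removes methyl groups from lysine 4 of histone H3 and works with the scaffold protein CoRest. In the fly ovary it is known for limiting the output of the BMP-like ligand Dpp by the somatic cells that surround the germline stem cells. Immunoprecipitation of RNA recovers transcripts that are bound to the protein, bound to its partners, or carried along with the beads, and the IgG reaction shows the RNA that is carried along without the specific antibody.

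Levels are FPKM in experiment 1 and RPKM in experiment 2, both of which are read numbers per transcript length and library depth. Each library was divided by a scaling factor, and ratios are log2 ratios of Lsd1 over IgG on the scaled value plus 1, so a ratio of 1 stands for a doubling in an abundant RNA and for more than that in a rare one. The scaling matters in experiment 2. Its Lsd1 library took 88.7% of exon reads from ribosomal RNA, against 57.6% with IgG, and held 1619605 exon reads outside ribosomal RNA, against 8739562 with IgG. Experiment 1 held 1557754 fragments outside ribosomal RNA with Lsd1 and 1411363 with IgG, as derived from the confidence limits. A level of at least 1 was reached by 6655 genes with Lsd1 and 6202 with IgG in experiment 1, and by 1439 genes with Lsd1 and 6656 with IgG in experiment 2. The Lsd1 library of experiment 2 was also the least even: its top 20 genes outside ribosomal RNA held 39.6% of the reads, against 7.0% with IgG, whereas in experiment 1 the shares were 10.6% with Lsd1 and 13.6% with IgG. The Bre1 library of experiment 1 was shallow. Over the genes of these shares it held 199954 fragments, against 1537450 with Lsd1 and 1393263 with IgG. Among 2732 protein-coding genes with at least 100 IgG fragments there, log2 ratios over IgG had an SD of 1.34 with Bre1 and 0.4 with Lsd1. Bre1 ratios of experiment 1 below carry this limit. Germline markers had levels above 0 in every library except bam, at 0 RPKM with Lsd1 in experiment 2.

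Of 6624 genes tested, 440 (6.64%) had a ratio above 0 in both experiments and 2265 (34.2%) had a ratio below 0 in both. A further 3195 genes (48.2%) were higher with Lsd1 in experiment 1 alone, 572 (8.64%) in experiment 2 alone, and 152 (2.29%) had a ratio of 0 in an experiment. Across genes the ratios of the 2 experiments had a Pearson correlation of -0.09 and a Spearman correlation of -0.14, which are descriptions over genes that share libraries. The ratios spread with an SD of 0.38 around a median of 0.03 in experiment 1, and with an SD of 1.06 around a median of -0.83 in experiment 2. The second median was -2.01 for deposited levels, 0.05 under quantile normalization and -0.04 under upper quartile scaling. Same-sign genes beyond 1 on the log2 scale were few: 8 genes (0.121%) were above 1 in both experiments and 13 (0.196%) were below -1 in both. Taken alone, 28 genes (0.423%) were above 1 in experiment 1 and 290 (4.38%) in experiment 2, and 34 (0.513%) were below -1 in experiment 1 and 2799 (42.3%) in experiment 2. The sign of both ratios was the same under 5 ways of scaling for 25 of the 440 higher genes and 431 of the 2265 lower ones, but for 7 of the 8 and 12 of the 13 beyond 1. Staying beyond 1 was less common than keeping the sign: of the 8, 5 were still above 1 as deposited, 5 under quantile normalization, 6 under upper quartile scaling and 5 on unique reads.

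**Figure D1:**
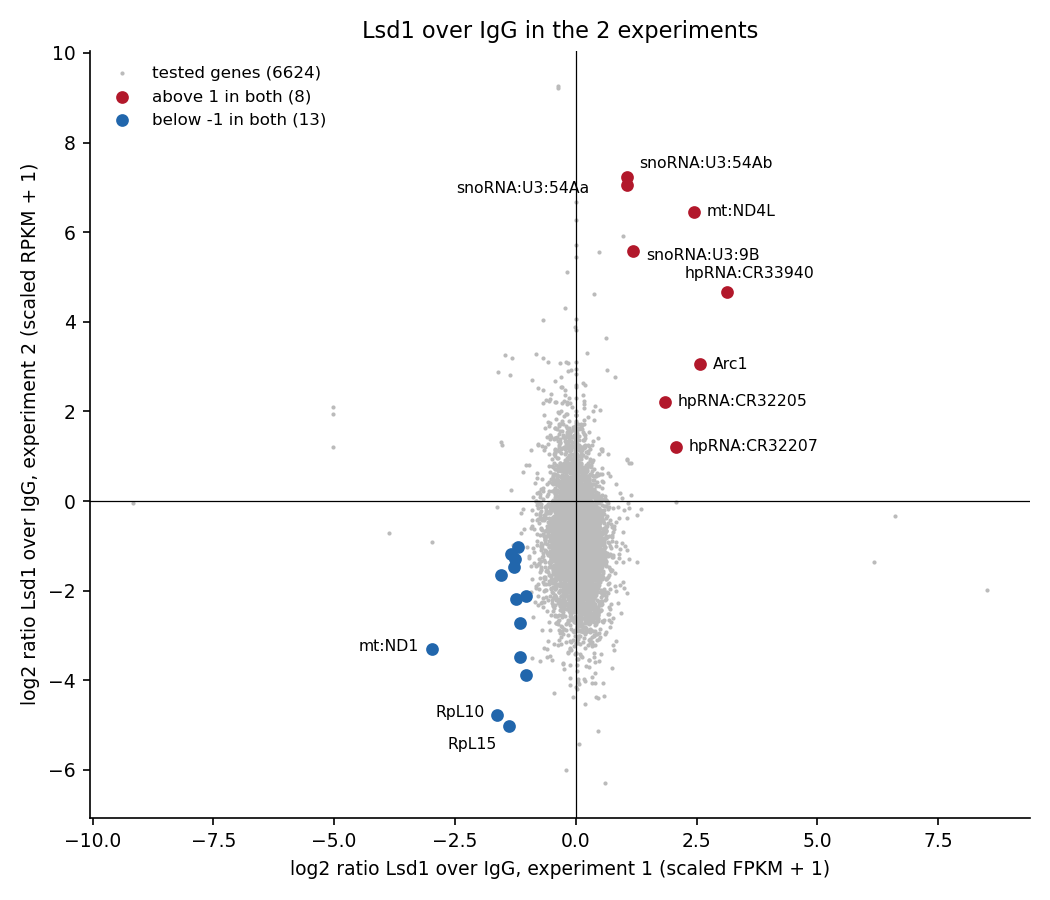
Each point is a tested gene, with its log2 ratio of Lsd1 over IgG in experiment 1 on the x axis and in experiment 2 on the y axis, both on scaled levels plus 1. The 8 genes above 1 in both lie at the upper right in red, and the 13 below -1 in both lie at the lower left in blue; most of the 6624 genes spread along the y axis.

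By limma, with a block for the experiment, 0 genes (0%) rose and 1 gene (0.0151%) fell (adjusted p threshold 0.05). Before adjustment, 150 genes were under that threshold. The call was for snoRNA:Psi18S-531, a box H/ACA guide RNA for pseudouridine in 18S rRNA, at X 763083 to 763234 (dm6). It had 0 FPKM with Lsd1 against 840 FPKM with IgG in experiment 1, and 0.692 RPKM with Lsd1 against 3.94 RPKM with IgG in experiment 2. Its ratios were -9.16 and -0.05, and limma put its change at -4.60 ± 0.92 (SE of the fit over 6 libraries; adjusted p = 0.0209). This SE, like those below, comes mostly from genes of like abundance and does not measure the spread between the 2 ratios. The RNA is 152 bases long, and the 840 FPKM with IgG came from 1 fragment, while Lsd1 had 0 fragments. Its 5 reads with Lsd1 and 29 with IgG in experiment 2 included no unique read. The snoRNA lies on the same strand inside RpL22, at -0.22 and 4.30, and inside the noncoding RNA CR42491, at 1.02 and -1.01. With edgeR on counts the change was 0.16 (adjusted p = 1) in place of -4.60. Without Lsd1 replicate 1 the change was -2.28 and without IgG replicate 1 it was -0.10, and the call was lost in both cases. It was also lost in limma without the replicate block (adjusted p = 0.966). A single pair of libraries per experiment also means that an exact paired permutation test over the 2 experiments cannot give a p below 0.5.

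The RNA furthest above IgG by its smaller ratio was a long hairpin RNA. Long hairpin RNAs are inverted-repeat transcripts that fold back on themselves and are cut by Dicer-2 into endogenous small interfering RNAs carried by AGO2. All 3 hairpin RNAs of the annotation that were joined between the experiments were tested, and all 3 had ratios above 1 in both. For hpRNA:CR33940 (FBgn0062928, 3L 19486745 to 19488439, minus strand) the level was 303 FPKM with Lsd1 against 26.5 FPKM with IgG in experiment 1, and 61.4 RPKM with Lsd1 against 11.1 RPKM with IgG in experiment 2. It was higher with Lsd1 before any scaling in both. After scaling it stood 9.13-fold above IgG in experiment 1 (95% counting interval 7.997 to 10.47) and 29.6-fold in experiment 2 (27.0 to 32.5), from 2473 fragments against 240 and 2954 reads against 546. Nearly all of its reads in experiment 2 were unique, 2948 with Lsd1 and 545 with IgG. Reads across exon junctions, however, numbered 0 with Lsd1 and 67 with IgG, so the reads differed in make-up between the antibodies. The cause of this was not tested. In limma the change was 3.89 ± 0.98 (SE of the fit over 6 libraries; adjusted p = 0.174). The counting intervals cover counting error only, and PCR copies are not independent molecules.

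The other hairpin RNAs had lower levels. For hpRNA:CR32205 (3L 19420390 to 19424183, minus strand) the level was 45.4 FPKM with Lsd1 against 9.08 FPKM with IgG in experiment 1, and 3.13 RPKM with Lsd1 against 2.06 RPKM with IgG in experiment 2. Its ratios were 1.84 and 2.22, or 1.38 in experiment 2 on unique reads. These numbered 215 with Lsd1 against 252 with IgG, so on unique reads it was above IgG there only after scaling. For hpRNA:CR32207 (3L 19477329 to 19478720, minus strand) the level was 69.0 FPKM with Lsd1 against 12.0 FPKM with IgG in experiment 1, and 5.61 RPKM with Lsd1 against 11.9 RPKM with IgG in experiment 2. Its ratios were 2.07 and 1.21, but the second was 0.57 on unique reads and -0.97 without scaling, so its place above IgG in experiment 2 rests on the scaling. Reads across exon junctions in experiment 2 numbered 0 with Lsd1 against 65 with IgG for hpRNA:CR32205. For hpRNA:CR32207 they numbered 6 with Lsd1 against 106 with IgG. The limma adjusted p of both hairpin RNAs was 0.966. The Bre1 libraries did not share these ratios throughout: Bre1 over IgG was 1.84 and -0.50 for hpRNA:CR33940, -1.06 and -0.61 for hpRNA:CR32205, and -0.22 and -0.58 for hpRNA:CR32207, in experiments 1 and 2. The direct difference of Lsd1 and Bre1 had limma adjusted p of 0.528, 0.119 and 1, in the same order.

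**Figure D2:**
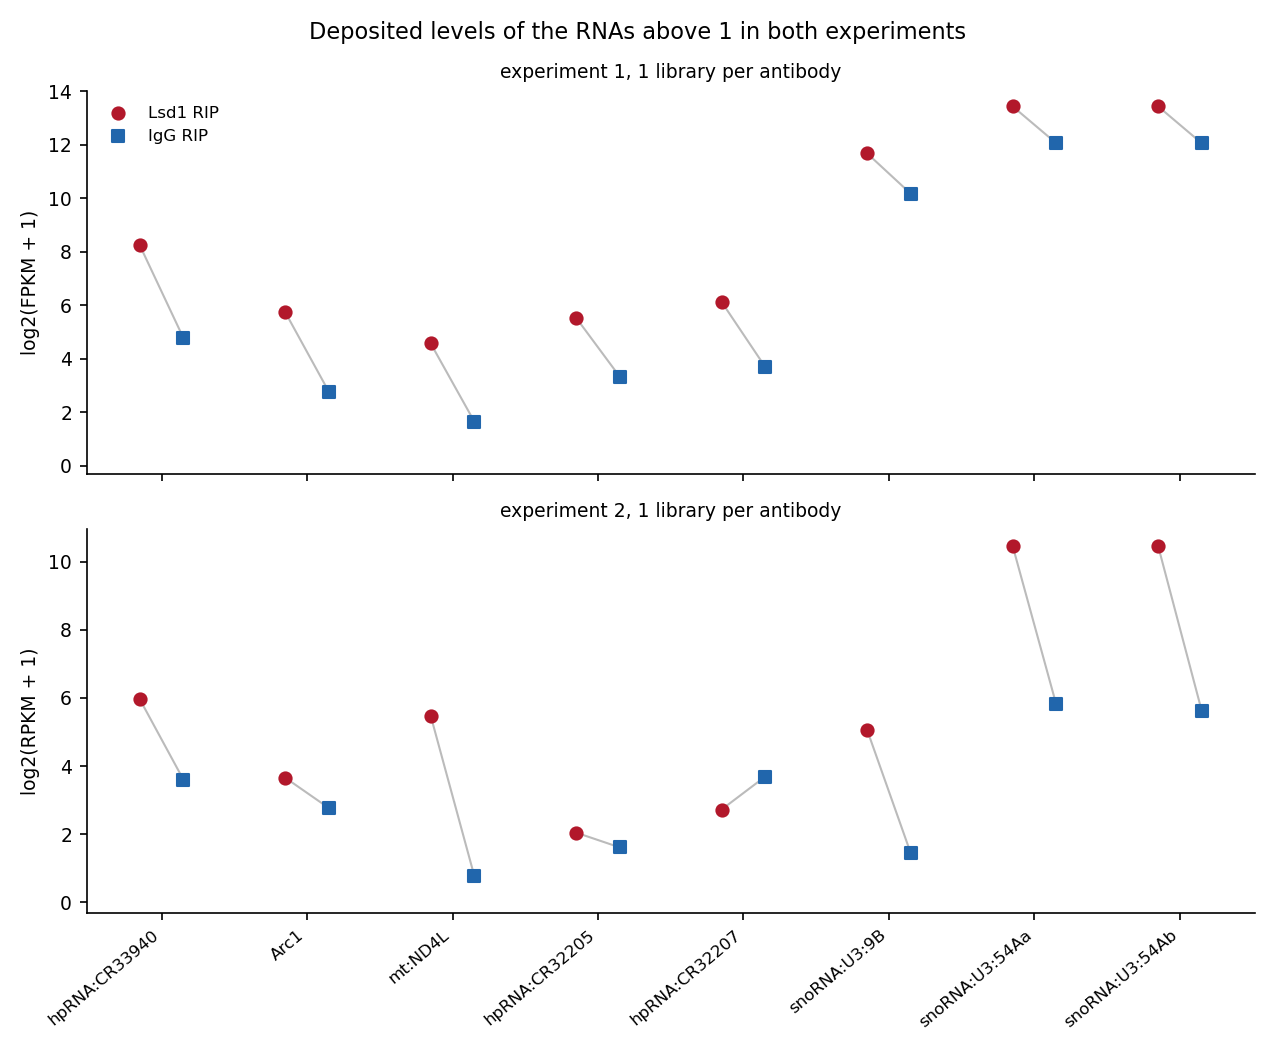
Deposited levels, as log2 of FPKM plus 1 in experiment 1 (top) and log2 of RPKM plus 1 in experiment 2 (bottom), of the 8 RNAs whose scaled ratio was above 1 in both experiments; red circles are Lsd1 and blue squares are IgG, with 1 library each. Only hpRNA:CR32207 in experiment 2 was deposited at a lower level with Lsd1 (5.61 RPKM) than with IgG (11.9 RPKM).

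The 3 hairpin RNAs lie on the same strand of 3L, in a span of 68050 bases (19420390 to 19488439). The gaps between them are 53145 bases, from hpRNA:CR32205 to hpRNA:CR32207, and 8024 bases, from there to hpRNA:CR33940. Of the 17 genes in the span 5 passed the filter on low values. In a window of 100 kb on either side, 6 genes other than the hairpin RNAs passed, with ratios between -0.21 and 0.81 (median 0.07) in experiment 1 and between -1.72 and 2.76 (median -1.27) in experiment 2. Of these 6, 1 was higher in both experiments. It was CG32212, which lies inside hpRNA:CR33940 on the opposite strand (19487560 to 19488348). CG32212 had 2.08 FPKM with Lsd1 against 0.314 FPKM with IgG, and 2.25 RPKM with Lsd1 against 0.0848 RPKM with IgG. The library kit does not mark strand, so its reads and those of the hairpin RNA cannot be told apart. Among genes of the span below the filter, CG14095 had 11 unique reads with Lsd1 and 0 with IgG in experiment 2, and 0 fragments with either antibody in experiment 1. Chd3, a chromodomain remodeller gene between the hairpin RNAs, had ratios of -0.21 and -1.57.

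**Figure D3:**
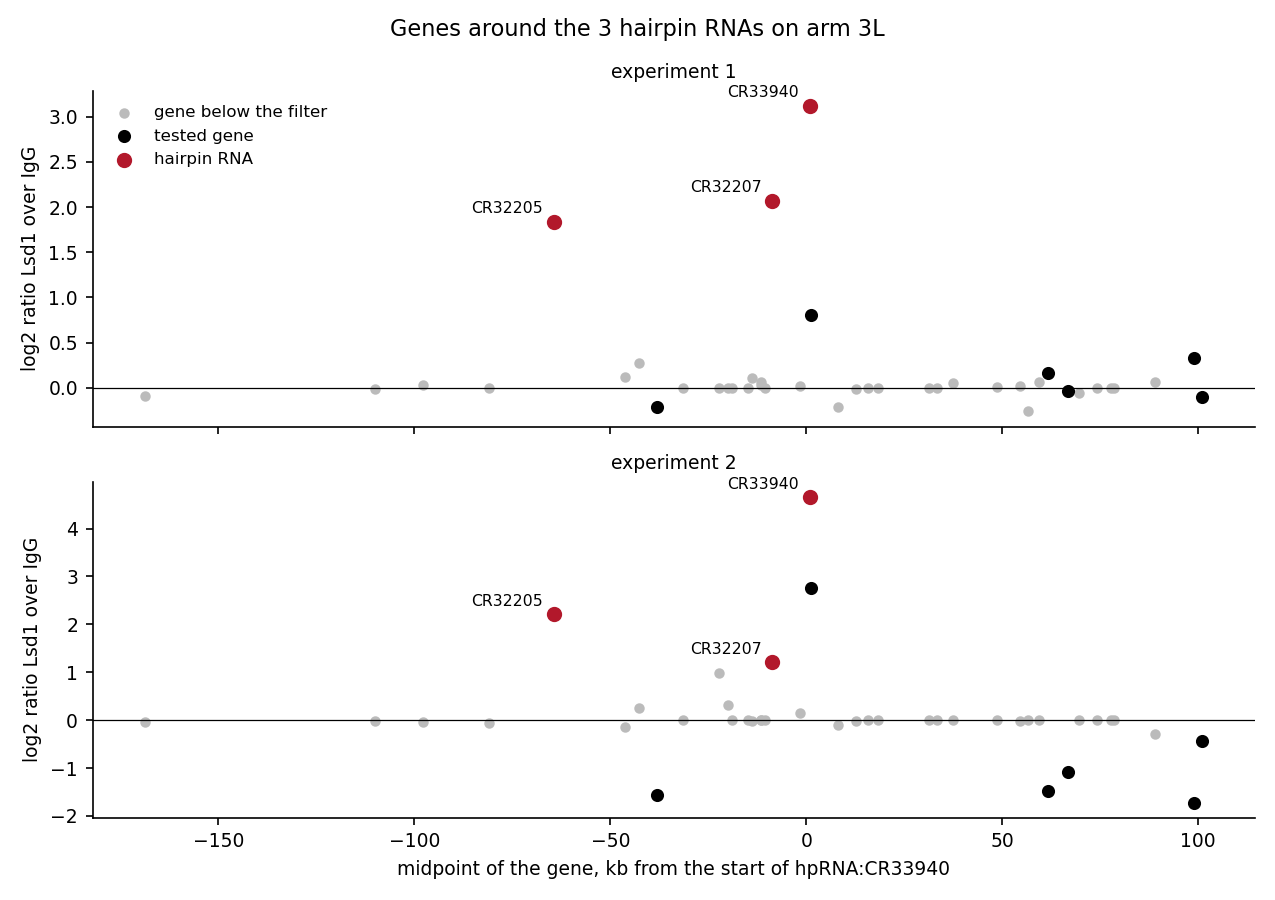
Log2 ratio of Lsd1 over IgG for the 41 genes of the window around the hairpin RNAs, plotted at each gene's midpoint in kb from the start of hpRNA:CR33940, for experiment 1 (top) and experiment 2 (bottom). Red points are the hairpin RNAs, black points other tested genes and grey points genes below the filter; the black point beside hpRNA:CR33940 is CG32212, at 0.81 and 2.76.

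The mRNAs of the small RNA machinery itself had shares near those of all genes. Of 10 tested genes of the small interfering and microRNA pathways, 0 were higher in both experiments (6.64% of all tested genes) and 3 were lower in both (34.2% of all), with median ratios of 0.13 and -0.92, against 0.03 and -0.83 over all tested genes. Dcr-2, which cuts the hairpins, had ratios of 0.27 and -1.37. AGO2, which carries the products, had 0.10 and -0.24. The double-stranded RNA binding partner loqs had -0.07 and -0.43. None of the 10 passed in limma.

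Small structured RNAs with ratios above 1 in both experiments were the U3 snoRNAs, box C/D RNAs that pair with the ribosomal RNA precursor and direct its first cleavages. For snoRNA:U3:9B (X 10348170 to 10348337) the level was 3287 FPKM with Lsd1 against 1155 FPKM with IgG in experiment 1, and 32.4 RPKM with Lsd1 against 1.72 RPKM with IgG in experiment 2. These rest on 56 fragments with Lsd1 against 22 with IgG, and on 259 reads with Lsd1 against 14 with IgG, all of them unique. Its scaled fold was 2.28 in experiment 1 (95% counting interval 1.37 to 3.92) and 101 in experiment 2 (59.2 to 188). The copies snoRNA:U3:54Aa and snoRNA:U3:54Ab were each listed at 11120 FPKM with Lsd1 against 4271 FPKM with IgG, and had 1418 RPKM with Lsd1 against 55.3 and 48.4 RPKM with IgG, with no unique read. The limma adjusted p of all 3 was 0.966. Bre1 over IgG was 0.19 and 0.07 for snoRNA:U3:9B, 1.68 and -0.16 for snoRNA:U3:54Aa, and 1.64 and 0.05 for snoRNA:U3:54Ab, in experiments 1 and 2. For both 54A copies the Bre1 ratio in experiment 1 was thus larger than the Lsd1 ratio of 1.06. Of the 8 RNAs above 1 in both, 7 passed with DESeq2 on counts and 0 with edgeR (adjusted p = 0.999 for each). Among all 6624 tested genes DESeq2 called 11 and edgeR 0. The 8 were picked by their ratios in these same libraries, so the passes give no separate support. Those of snoRNA:U3:54Aa and snoRNA:U3:54Ab, which had no unique read, are not separate from each other. The DESeq2 adjusted p was 6.48e-05 for both snoRNA:U3:54Aa and snoRNA:U3:54Ab, 0.00205 for snoRNA:U3:9B, 0.000252 for hpRNA:CR33940, 0.000335 for mt:ND4L, 0.0141 for Arc1 and 0.0491 for hpRNA:CR32205, and it was 0.27 for hpRNA:CR32207. RNase MRP RNA, the RNA of a nuclease that also cuts the ribosomal RNA precursor, had 13027 reads with Lsd1 against 2878 with IgG in experiment 2, practically all of them unique, and ratios of 0.37 and 4.62 that kept their sign under every scaling. RNase P RNA, the related RNA of the nuclease that trims transfer RNA precursors, had opposite signs, at -0.19 and 5.11, with no unique read. RNase MRP RNA was the 1 of 5 tested members of the list of other structured RNAs that was higher in both (20%, against 6.64% of all tested genes).

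As lists, the small RNAs were mixed. Of all tested genes, for comparison, 6.64% were higher in both and 34.2% were lower in both. Of 24 tested U snRNAs, the RNAs of the spliceosome and related particles, 5 (20.8%) were higher in both and 2 (8.3%) were lower in both. Another 12 had a ratio of 0 because they were listed at 0 in experiment 1. The 5 were 7SK, at 0.62 and 3.64, and 4 copies of U2, at 1.05 to 1.15 in experiment 1 and 0.85 to 0.94 in experiment 2. Another U2 copy, snRNA:U2:38ABa, had opposite signs, at 1.11 and -0.16. In experiment 2 this copy, snRNA:U2:34ABb and snRNA:U2:34ABc had no unique read, so the U2 copies are not separate observations. Bre1 over IgG was also above 0 in both experiments for the 5 RNAs higher in both. It was 0.94 and 0.31 for 7SK, and 2.91 to 3.27 and 0.34 to 1.09 for the 4 U2 copies among them. Those 4 had lower deposited levels with Lsd1 in experiment 2, such as 59.6 RPKM with Lsd1 against 177 RPKM with IgG for snRNA:U2:34ABa. Of 61 tested snoRNAs 6 (9.8%) were higher in both, 2 (3.3%) were lower in both, and 50 had a ratio of 0. Of 9 scaRNAs, which guide modification of the snRNAs, 1 (11.1%) was higher and 1 (11.1%) was lower in both. The lower one was scaRNA:MeU5-C46, with 278 FPKM with Lsd1 against 339 FPKM with IgG and 6.59 RPKM with Lsd1 against 370 RPKM with IgG. The signal recognition particle RNA, listed as a pair of copies without unique reads, was opposite in the experiments, at -0.37 in both copies in experiment 1 and 9.22 and 9.27 in experiment 2. Of 82 long and antisense noncoding RNAs, 8 (9.8%) were higher in both and 19 (23.2%) lower, with medians of 0.14 and -0.50 (0.18 for the second under quantile normalization). Only 44 of the 82 had a level of at least 1 in the Lsd1 and IgG pair of each experiment. Among the 8, CR45800 had 5 reads with Lsd1 against 4 with IgG in experiment 2. The nuclear stress RNA Hsromega had 41 reads with Lsd1 against 11543 with IgG in experiment 2, a ratio of -2.55, and 0.09 in experiment 1. The dosage compensation RNAs roX1 and roX2 did not reach the minimum level.

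Arc1 was the protein-coding nuclear gene furthest above IgG by the smaller of its ratios. It encodes a protein related to retrotransposon Gag that forms capsids and is known to carry its own mRNA between cells at fly synapses. Arc1 (FBgn0033926, 2R 14357927 to 14360297, minus strand) had 52.7 FPKM with Lsd1 against 5.84 FPKM with IgG in experiment 1, and 11.6 RPKM with Lsd1 against 5.81 RPKM with IgG in experiment 2. It was thus higher with Lsd1 as deposited in both. The scaled fold was 7.21 in experiment 1 (95% counting interval 6.17 to 8.46) and 10.7 in experiment 2 (9.77 to 11.8), from 1455 fragments against 180 and 1309 reads against 667, all of the reads unique. In limma the change was 2.81 ± 0.78 (SE of the fit over 6 libraries; adjusted p = 0.36). Bre1 over IgG was 0.45 and -1.39 for the same gene, and the direct difference of Lsd1 and Bre1 was 3.28 with a limma adjusted p of 0.0776.

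Other protein-coding nuclear genes higher in both had ratios below 1 in experiment 1. For udd, which encodes a factor that RNA polymerase I needs at ribosomal RNA genes, the level was 4.53 FPKM with Lsd1 against 1.78 FPKM with IgG, and 14.2 RPKM with Lsd1 against 8.35 RPKM with IgG. Of its exon reads in experiment 2, 1 of 911 with Lsd1 was unique, against 148 of 547 with IgG, and on unique reads its experiment 2 ratio was -1.03 in place of 2.92. CG8929 had ratios of 0.70 and 0.56, and CG11122 had 0.55 and 1.17. The synaptotagmin-like gene btsz had 0.55 and 0.60, from 669 fragments with Lsd1 against 335 with IgG, and 784 reads with Lsd1 against 2269 with IgG. The TFIID subunit gene e(y)1 had 0.54 and 1.11, and Ppn, which encodes papilin of the basement membrane, had 0.54 and 0.74. Apart from udd these genes had fewer reads with Lsd1 than with IgG in experiment 2 and were above IgG there only after scaling.

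Some genes were higher with Lsd1 in both experiments under every scaling although their weaker ratio was small. The RNA-binding Y-box protein gene yps, whose product is part of the oskar mRNA particle, had 60.2 FPKM with Lsd1 against 42.0 FPKM with IgG and 28.4 RPKM with Lsd1 against 23.6 RPKM with IgG. Its ratios were 0.19 and 2.60, from 1358 fragments against 1093 and 3609 reads against 3057. The mucin-related gene Mur18B had 9.64 FPKM with Lsd1 against 6.36 FPKM with IgG and 9.15 RPKM with Lsd1 against 3.20 RPKM with IgG, from 702 reads against 250 in experiment 2. The ecdysteroid synthesis gene phm had ratios of 0.17 and 1.72, and the uncharacterised gene CG13751 had 0.15 and 2.37. In experiment 1 the counting interval of the fold included 1 for Mur18B (0.958 to 1.54), phm (0.783 to 2.08) and CG13751 (0.660 to 1.94), and did not for yps (1.06 to 1.24).

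Genes of the mitochondrial genome stood at both ends. Of 14 tested, 4 (28.6%) were higher in both experiments, 2 (14.3%) were lower in both and 8 were higher in experiment 2 alone. Over all tested genes these shares were 6.64%, 34.2% and 8.64%. The medians of the 14 were -0.64 and 2.34. Of the 4 higher genes, mt:ND4L, mt:ND6 and mt:ND2 encode subunits of complex I, the first proton pump of the respiratory chain, and mt:CoII, at 0.10 and 1.71, encodes a subunit of cytochrome c oxidase. For mt:ND4L (mitochondrial genome 9545 to 9835, minus strand) the level was 22.9 FPKM with Lsd1 against 2.16 FPKM with IgG, from 19 fragments against 2, and 43.5 RPKM with Lsd1 against 0.709 RPKM with IgG, from 602 reads against 10. Its ratios were 2.45 and 6.45, and limma gave a change of 4.45 ± 1.03 (SE of the fit over 6 libraries; adjusted p = 0.142). The gene mt:ND4 (8206 to 9545) meets mt:ND4L at base 9545 on the same strand and had opposite signs, at -0.93 and 1.15. It had 186 fragments with Lsd1 against 338 with IgG in experiment 1, and 86 reads against 142 in experiment 2. For mt:ND6 (9971 to 10495, plus strand) the level was 2.92 FPKM with Lsd1 against 0.474 FPKM with IgG, and 33.3 RPKM with Lsd1 against 1.02 RPKM with IgG. It was the first gene under the threshold, at 0.97 and 5.91. For mt:ND2 (240 to 1265, plus strand) the level was 2.44 FPKM with Lsd1 against 0.960 FPKM with IgG, and 20.3 RPKM with Lsd1 against 0.362 RPKM with IgG. In experiment 1 the counting interval of the fold included 1 for mt:ND2 (0.934 to 4.785, from 24 fragments with Lsd1 against 10 with IgG) and for mt:CoII (0.961 to 1.197). Bre1 over IgG was also above 0 for the complex I genes in experiment 1, at 7.18 for mt:ND4L, 2.93 for mt:ND6 and 4.80 for mt:ND2, and it was below 0 for all 3 in experiment 2, at -0.34, -0.57 and -0.20.

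The gene furthest below IgG by the smaller of its ratios was mt:ND1, another complex I subunit of the same genome (11721 to 12659, minus strand). It had 10.4 FPKM with Lsd1 against 76.1 FPKM with IgG in experiment 1, and 3.05 RPKM with Lsd1 against 180 RPKM with IgG in experiment 2. The scaled fold was 0.110 in experiment 1 (95% counting interval 0.0876 to 0.136) and 0.0910 in experiment 2 (0.0762 to 0.108), from 95 fragments against 776 and 136 reads against 8170. In limma the change was -3.14 ± 0.90 (SE of the fit over 6 libraries; adjusted p = 0.442). Bre1 over IgG, which shares the IgG libraries, was -3.75 and -0.80 for mt:ND1, and the direct difference of Lsd1 and Bre1 was -0.87 (limma adjusted p = 1). The small mitochondrial ribosomal RNA mt:srRNA had 526 FPKM with Lsd1 against 1002 FPKM with IgG and 0.937 RPKM with Lsd1 against 15.3 RPKM with IgG, with ratios of -1.25 and -1.30. The second ratio was 0.09 under upper quartile scaling, and Bre1 over IgG for mt:srRNA was 4.73 and 3.20. The opposite-sign genes included mt:Cyt-b, a complex III subunit, with 36.9 FPKM with Lsd1 against 84.6 FPKM with IgG, and 15.5 RPKM with Lsd1 against 7.01 RPKM with IgG. They also included mt:ND3, with 0.636 FPKM with Lsd1 against 4.55 FPKM with IgG, and 3.51 RPKM with Lsd1 against 0.816 RPKM with IgG.

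Among the nuclear genes below -1 in both were 4 ribosomal protein mRNAs of the large subunit. RpL10 (3L 23093190 to 23095471) had 466 FPKM with Lsd1 against 1146 FPKM with IgG, and 0.613 RPKM with Lsd1 against 143 RPKM with IgG, from 36 reads against 8581. RpL15 had 371 FPKM with Lsd1 against 776 FPKM with IgG, and 0.0413 RPKM with Lsd1 against 69.2 RPKM with IgG, from 2 reads against 3412. RpL5 had ratios of -1.15 and -3.47, and RpL21 had -1.04 and -3.89. These mRNAs were thus lower with Lsd1 in both experiments, with scaled folds in experiment 1 of 0.325 for RpL10, 0.382 for RpL15, 0.449 for RpL5 and 0.485 for RpL21. Bre1 over IgG, with the same IgG libraries, was -4.82 and -0.72 for RpL10, -6.08 and -0.21 for RpL15, -3.85 and -0.05 for RpL5, and -4.92 and -0.25 for RpL21. The limma adjusted p of the direct difference of Lsd1 and Bre1 was 1 for all 4. As a list, however, the cytoplasmic ribosomal proteins split by experiment. Of 80 tested, 32 (40%) were lower in both, against 34.2% of all genes. Another 47 were higher in experiment 2 alone and 1, RpS23, was higher in both, against 8.64% and 6.64% of all genes. Their medians were -0.46 and 0.42, and the second was -0.04 under quantile normalization and -1.90 as deposited. RpS7 was among those split, with 698 FPKM with Lsd1 against 1437 FPKM with IgG, and 130 RPKM with Lsd1 against 97.8 RPKM with IgG. The mitochondrial ribosomal proteins, which are encoded in the nucleus, were lower in both for 50 of 72 genes and higher in both for 2, against 34.2% and 6.64% of all tested genes. Their medians were -0.19 and -1.08, and under quantile normalization the second was -0.10. The furthest below IgG by the smaller ratio was mRpS21, with 8.61 FPKM with Lsd1 against 18.3 FPKM with IgG, and 0 RPKM with Lsd1 against 7.04 RPKM with IgG, from 0 reads against 162, while Bre1 over IgG was -3.75 and -0.83.

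The remaining genes below -1 in both had low levels or few reads with Lsd1 in experiment 2. The elongin C gene EloC had 15.8 FPKM with Lsd1 against 27.3 FPKM with IgG and 0.161 RPKM with Lsd1 against 10.4 RPKM with IgG. The noncoding RNA CR40469 had 210 FPKM with Lsd1 against 376 FPKM with IgG and 1.57 RPKM with Lsd1 against 67.5 RPKM with IgG. CR44833, CG15525, l(3)neo43 and CR44999 had 0.744 to 1.46 FPKM with Lsd1 against 3.29 to 6.18 FPKM with IgG, and all 4 had 0 reads with Lsd1 in experiment 2, against 78 to 200 with IgG. The 200 reads were those of CR44999, of which 5 were unique, and on unique reads its experiment 2 ratio was -0.04 in place of -1.02. The gene just outside the threshold was CG34228, at -1.0 and -1.02. Zero reads in that library were common: of 6159 protein-coding genes with at least 100 reads with IgG in experiment 2, 729 (11.84%) had 0 with Lsd1, whereas in experiment 1 this held for 0 of 2732 genes with at least 100 fragments with IgG. With at least 1000 reads with IgG, 21 of 2178 genes had 0 with Lsd1. Among them were gus, which encodes a partner of the germ plasm helicase Vasa, at 0 reads with Lsd1 against 3286 with IgG, and pgc, a germ cell gene, at 0 with Lsd1 against 2561 with IgG. In experiment 1 these had 290 fragments with Lsd1 against 219 with IgG for gus, and 150 with Lsd1 against 119 with IgG for pgc.

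**Figure D4:**
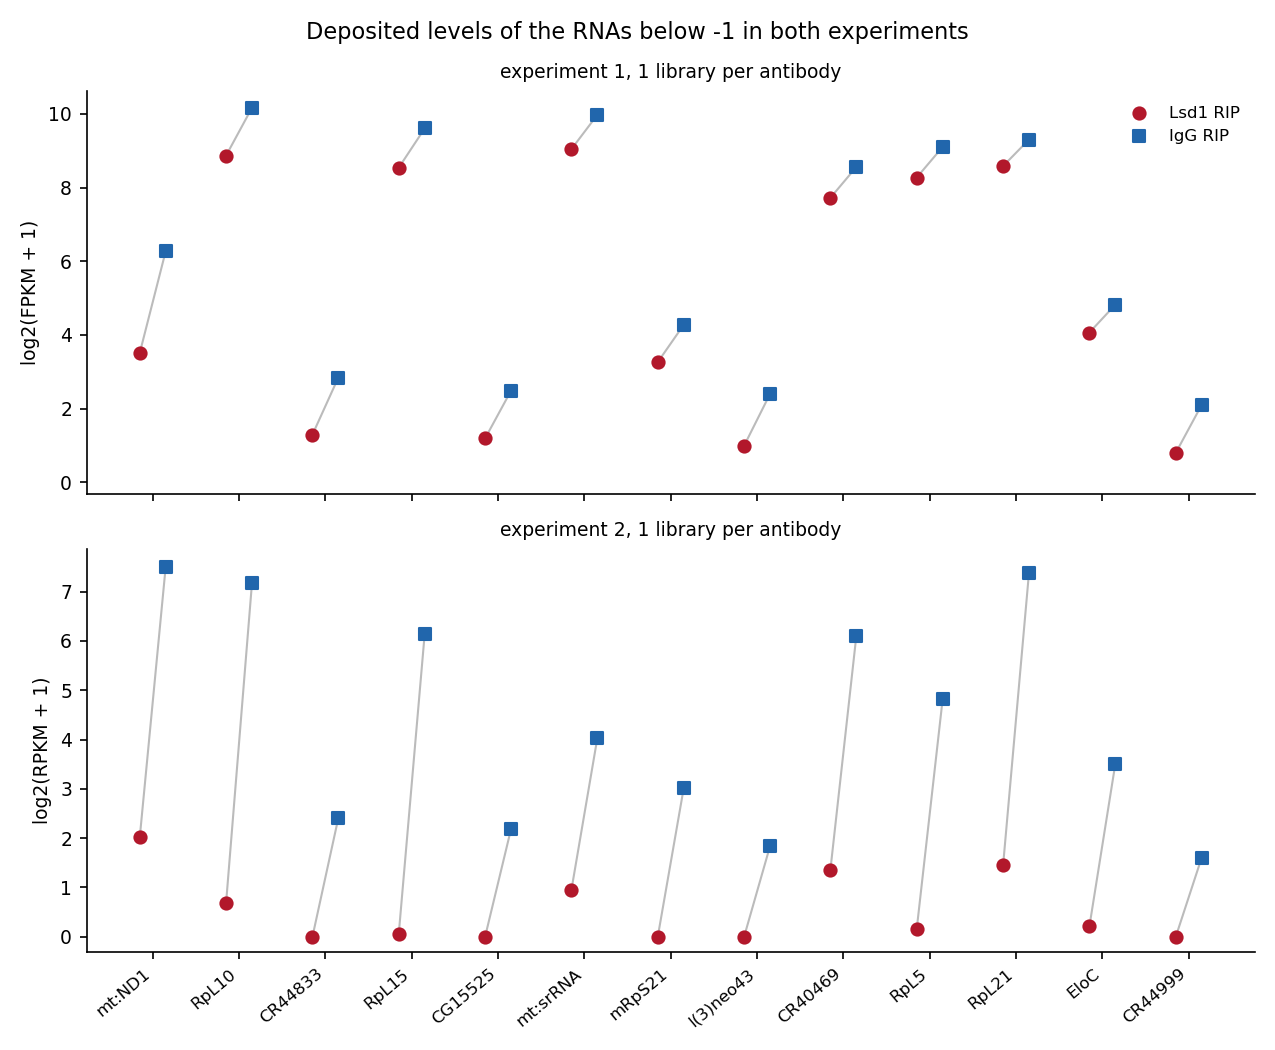
Deposited levels, as log2 of FPKM plus 1 in experiment 1 (top) and log2 of RPKM plus 1 in experiment 2 (bottom), of the 13 RNAs whose scaled ratio was below -1 in both experiments; red circles are Lsd1 and blue squares are IgG, with 1 library each. Lsd1 lies below IgG for every gene in both experiments, and CR44833, CG15525, mRpS21, l(3)neo43 and CR44999 lie at 0 with Lsd1 in experiment 2.

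The same-sign protein-coding genes differed in length and position. The 416 protein-coding genes higher in both (6.47% of 6433) had a median exon length of 2700 bases, the 2236 lower in both (34.8%) had 1648 bases, and all 6433 tested had 2151 bases. Genes lower in both made up 54.5% of the genes with under 1000 bases of exon and 9.3% of those with over 5000 bases. Genes higher in both made up 4.1% of the shortest class and 10.3% of the longest. In experiment 1 the median ratio also rose with length, from -0.15 in the shortest class to 0.25 in the longest. In experiment 2 these medians were -0.94 and -0.82. They were -0.39 and 0.18 under upper quartile scaling, -0.11 and 0.12 under quantile normalization, and -1.99 and -2.15 as deposited. Whether experiment 2 had the trend thus depended on the scaling. The trend of experiment 1 was not particular to Lsd1. Bre1 over IgG had medians of -1.25 and 0.34 for these classes in experiment 1, from the shallower Bre1 library. In experiment 2 the Bre1 medians were -0.39 and -0.17. The X chromosome held 119 of the 416 genes higher in both (28.6%), 323 of the 2236 lower in both (14.4%) and 1121 of all 6433 (17.4%). Put the other way, 10.6% of X-linked genes were higher in both, against 5.6% of genes on the autosomal arms. In each of the 5 exon length classes the X-linked share was above the autosomal one, from 4.3% against 3.8% under 1000 bases to 15.6% against 9.0% over 5000 bases. The median ratios of X-linked genes were 0.06 and -0.69, against 0.03 and -0.87 on the autosomal arms, and under quantile normalization the second median was 0.19 on the X against 0.03. On the fourth chromosome 0 of 48 genes were higher in both, and the medians were 0.20 and -2.15. These shares describe the libraries and were not tested, since genes are not replicates.

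The transcripts of the targeted complexes had no common sign. Su(var)3-3, the Lsd1 gene itself, had 1.73 FPKM with Lsd1 against 1.20 FPKM with IgG, and 0.257 RPKM with Lsd1 against 5.16 RPKM with IgG, which gave ratios of 0.09 and -1.08. CoRest had -0.01 and -0.09, and HDAC1, the deacetylase of the same complex, had 0.03 and -0.25. Of 9 tested genes of the Lsd1 and CoRest complex and its heterochromatin partners, 1 (11.1%) was higher in both and 2 (22.2%) were lower in both. Over all tested genes these shares were 6.64% and 34.2%. The medians of the 9 were 0.03 and -0.90 (0.55 for the second under upper quartile scaling). The one higher in both was Mi-2, a nucleosome remodelling ATPase, at 0.03 and 1.06. In the Bre1 and Paf1 list 1 of 10 (10%) was higher in both and 1 (10%) lower. Bre1 itself had 11.6 FPKM with Lsd1 against 2.97 FPKM with IgG in experiment 1, and 2.57 RPKM with Lsd1 against 17.6 RPKM with IgG in experiment 2, or ratios of 1.27 and -0.31. In the list of niche signalling genes 2 of 12 (16.7%) were higher in both, namely the BMP ligand gene gbb, at 0.27 and 1.53, and the Smad gene Med, at 0.19 and 0.52. The BMP receptor gene tkv was lower in both, at -0.02 and -1.73, and the other 9 were higher in experiment 1 alone, as were 48.2% of all tested genes. The ligand gene dpp did not reach the minimum level.

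Germline and muscle transcripts had opposite signs in the experiments. Of all tested genes 48.2% were higher in experiment 1 alone, 8.64% in experiment 2 alone and 6.64% in both, with medians of 0.03 and -0.83. Of 10 germline genes 9 were higher in experiment 1 alone and 1, the ligand gene grk, was higher in both, with medians of 0.40 and -2.19. The posterior determinant osk had 205.2 FPKM with Lsd1 against 119 FPKM with IgG, and 1.56 RPKM with Lsd1 against 359 RPKM with IgG. The translational regulator nos had ratios of 0.73 and -2.70, and the anterior determinant bcd had 0.224 RPKM with Lsd1 against 10.8 RPKM with IgG in experiment 2. All 8 tested muscle genes of the ovarian sheath were higher in experiment 2 alone, with medians of -0.67 and 1.81 (-0.23 for the second as deposited). The troponin T gene up had 24.1 FPKM with Lsd1 against 50.4 FPKM with IgG, and 42.9 RPKM with Lsd1 against 23.6 RPKM with IgG. The summed level of all 8 was 172.9 FPKM with Lsd1 against 212.4 FPKM with IgG, and 82.4 RPKM with Lsd1 against 104.3 RPKM with IgG. Of the 21 tested piRNA pathway genes 0 were higher in both, 7 were lower in both and 14 were higher in experiment 1 alone. For the lower genes this was 33.3%, near the 34.2% of all tested genes. Of 17 heat shock and chaperone genes 6 (35.3%) were higher in both and 2 (11.8%) lower, against 6.64% and 34.2% of all tested genes. Their medians were 0.20 and 0.03, against 0.03 and -0.83 over all tested genes. Of the 17, 12 had a level of at least 1 in the Lsd1 and IgG pair of each experiment. The inducible gene Hsp70Ab led them at 0.55 and 0.45, with at most 2 unique reads in either library of experiment 2. The related gene Hsp70Aa was also higher in both, with 888 fragments against 529 in experiment 1, near the 893 against 533 of Hsp70Ab. In experiment 2 Hsp70Aa had 5 reads with Lsd1 against 4 with IgG, none of them unique. Histone genes, with 116 tested, had 5 (4.3%) higher and 19 (16.4%) lower in both, and 63 were at 0 reads in both libraries of experiment 2.

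Other marker lists had few tested members. Of the somatic ovary markers tj, zfh1 and Fas3 passed the filter, 0 of them had the same sign in both experiments, and en was at 0 FPKM in both libraries of experiment 1. Of the fat body genes the yolk protein genes Yp1, Yp2 and Yp3 and LpR1 passed, 0 of 4 with the same sign. Of 5 gut genes 2 were higher and 3 lower in both, against 6.64% and 34.2% of all tested genes, with at most 4.13 RPKM in either library of experiment 2. Of the hemocyte list Col4a1 and srp passed, and the collagen IV gene Col4a1 was higher in both, with 22.9 FPKM with Lsd1 against 13.6 FPKM with IgG, and 38.5 RPKM with Lsd1 against 45.9 RPKM with IgG, while Hml and NimC1 were at 0 RPKM with Lsd1 in experiment 2. Bre1 over IgG was also above 0 in both experiments for Col4a1, at 2.52 and 1.34. The part of other cell types in the ratios was not tested.

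**Figure D5:**
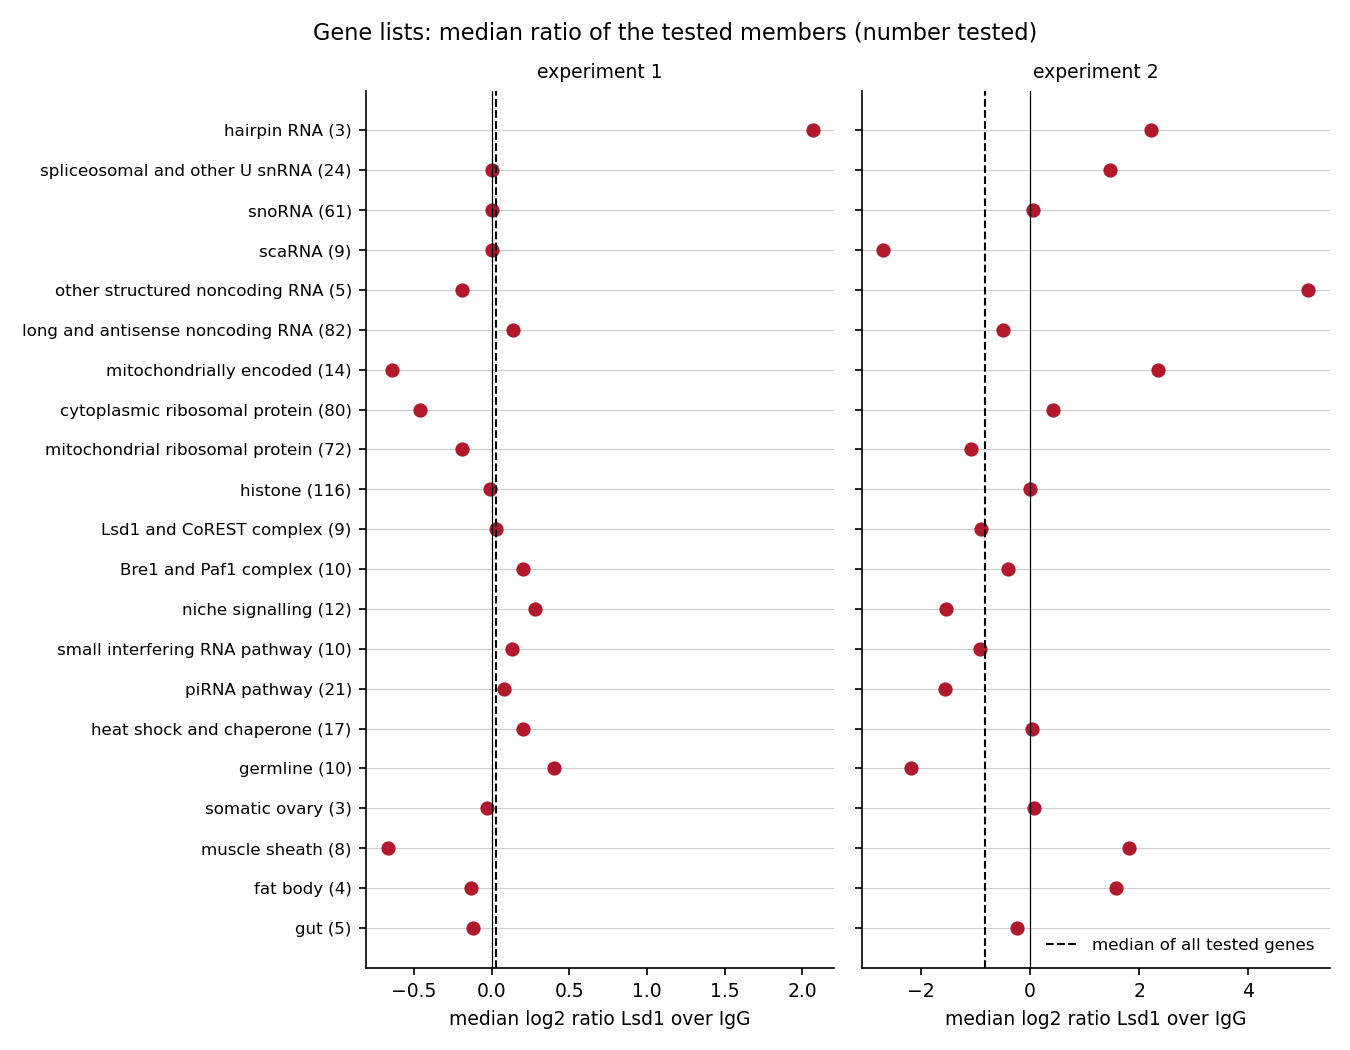
Median log2 ratio of Lsd1 over IgG of the tested members of each gene list with at least 3 of them, in experiment 1 (left) and experiment 2 (right), with the number tested in brackets; the dashed line is the median of all tested genes, at 0.03 and -0.83. The hairpin RNAs lie at 2.07 and 2.22, the germline genes at 0.40 and -2.19 and the muscle sheath genes at -0.67 and 1.81.

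Some nuclear genes had a ratio above 1 in experiment 1 and below -1 in experiment 2. The chromatin gene upSET had 12.1 FPKM with Lsd1 against 3.74 FPKM with IgG, and 0.648 RPKM with Lsd1 against 11.5 RPKM with IgG. The nuclear RNA-binding repressor gene spen had 17.3 FPKM with Lsd1 against 5.85 FPKM with IgG, and 0.516 RPKM with Lsd1 against 8.17 RPKM with IgG. In both genes the counts were large in each experiment, with 3963 fragments against 1544 for spen in experiment 1 and 565 reads against 9115 in experiment 2. SKIP had 8.01 FPKM with Lsd1 against 2.28 FPKM with IgG, and 0.296 RPKM with Lsd1 against 12.9 RPKM with IgG.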

How the data were processed

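RNA from ovary lysate was measured in 6 libraries, of which the Lsd1 and IgG libraries of 2 experiments are compared here. Libraries were made with the TruSeq RNA kit, version 2, without selection for polyadenylated RNA, per the labels' protocols. Per the submitters' processing notes, the build was dm6 and the tools included Cufflinks, TopHat, SAMtools 0.1.18.0 and Bowtie2 2.0.6.0. For experiment 1 the authors deposited FPKM per transcript with confidence limits, per the file headers, which were summed per gene. For experiment 2 the authors deposited RPKM and read counts (exon, unique, junction and intron reads) per gene, per the file headers, made by a program not given in the sources used here. Experiment and quantification therefore cannot be told apart, and the block takes up both.

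Of 17480 and 17398 genes, 17021 were joined by FlyBase identifier; 31 without an estimate and 3 whose transcript was split over repeated rows were left out, and 16987 were used. Symbols follow the files, and 16931 matched the RefSeq table. The filter asked for a level of 1 or more in 2 or more of all 6 libraries. Libraries were divided by their median ratio over 1008 genes with a level of at least 1 in all 6 (1.85 for Lsd1 and 1.48 for IgG in experiment 1, and 0.371 for Lsd1 and 1.99 for IgG in experiment 2), and log2(value + 1) was fitted over all 6 libraries with limma 3.58.1 in R 4.3.3 (lmFit, then eBayes with trend), with terms for the antibody and for the experiment. This left 2 residual degrees of freedom, and eBayes added 82 prior ones, so a gene's SE comes mostly from genes of like abundance. P-values were adjusted by Benjamini and Hochberg over all tested genes. Per the labels' protocols each lysate served all antibodies, which pairs the libraries. Deviations from the antibody means correlated across genes at 0.47 for Lsd1 with IgG, 0.51 for Bre1 with IgG and 0.11 for Lsd1 with Bre1. These deviations also hold the change of quantification between the experiments. Lysates are the replicates, and part of their spread may be technical.

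Fragment numbers of experiment 1 were worked out from the confidence limits of the deposited FPKM, and modelled for genes with several transcripts; among low transcripts 82.6% (Lsd1) and 83.8% (IgG) of the recovered values were whole within 0.05. These and the reads of experiment 2 gave the counting intervals (Clopper-Pearson, 95%) and the counts for edgeR 4.0.16 and DESeq2 1.42.0. The fit was tested on simulated data. Further alternatives were pseudocounts of 0.1 and 5, other filters and scalings, unique reads, no block, no trend, fewer libraries, and leaving out each Lsd1 and IgG library; same-sign counts from 1 experiment alone were added after seeing the data. The members and lists were chosen with earlier results of these data known. Genes were named by a rule: the 12 per direction with the largest weaker ratio among same-sign genes with a level of at least 1 in each experiment, at least 10 reads in experiment 2 and a lower confidence limit above 0 in experiment 1, likewise the 10 protein-coding ones, called genes, every hairpin RNA, genes of the targeted complexes, 2 per list and direction, and 5 per direction of opposite sign. Single members of lists and genes that kept their sign under every scaling were also named after their values were seen. Bre1 over IgG shares the IgG libraries with Lsd1 over IgG. Repeated sheets of experiment 1 were not used.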

Additional observations from a re-analysis of the deposited data

Results flagged for a closer look

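Intron reads were not part of the comparison. In experiment 2, 3 genes had at least 1000 intron reads with Lsd1 and more of them per 1000000 gene reads outside ribosomal RNA than with IgG. For udd there were 16579 intron reads with Lsd1 against 758 with IgG, or 10466 per 1000000 with Lsd1 against 83.4 with IgG, and 122 of the Lsd1 reads and 41 of the IgG reads were unique. For brat there were 6297 with Lsd1 against 6543 with IgG, or 3975 per 1000000 with Lsd1 against 719.9 with IgG, of which 1 with Lsd1 and 1693 with IgG were unique. For CG34347 there were 1503 with Lsd1 against 2305 with IgG, or 948.8 per 1000000 with Lsd1 against 253.6 with IgG, of which 10 with Lsd1 and 2034 with IgG were unique. Introns took 2.76% of gene reads outside ribosomal RNA with Lsd1 and 7.96% with IgG. Experiment 1 gives no intron reads, so these values have no repeat.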

How the results depend on the processing

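The number of called genes was 1 in the fit reported and 0 with a pseudocount of 0.1, 15 with a pseudocount of 5 (12 higher and 3 lower), 3 with a minimum of 5 in 2 libraries and 0 with no filter. It was 0 for values as deposited, 0 under quantile normalization, 0 under upper quartile scaling and 10 for the median ratio over the 4 libraries (8 higher and 2 lower). Without the replicate block it was 0, without the mean-variance trend 0, and with the Lsd1 and IgG libraries alone and the replicate block 4 (3 higher and 1 lower). In these limma fits and those below with 0 calls, 14 (as deposited) to 173 genes (no filter) had an unadjusted p under 0.05. It was 0 with edgeR, where 31 genes had an unadjusted p under 0.05, and 11 with DESeq2, all higher. Leaving out an Lsd1 or IgG library gave from 0 (without IgG replicate 1) to 1816 genes: 1816 without Lsd1 replicate 1 (72 higher and 1744 lower), 9 without Lsd1 replicate 2 and 2 without IgG replicate 2. The lone library of an antibody is there assumed to vary like the others. The fitted change of snoRNA:Psi18S-531 turned to 0.16 with edgeR.

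Genes higher in both numbered 440, and 200 with a minimum of 5, 719 with no filter, 42 as deposited (26 of them among the 440), 1632 under quantile normalization (376) and 1299 under upper quartile scaling (341). Genes lower in both numbered 2265, and 937 with a minimum of 5, 3692 with no filter, 1144 as deposited (934 among the 2265) and 1346 under quantile normalization (1139). Genes above 1 in both numbered 8, and 12 with a pseudocount of 0.1; 5 of the 8 were in the set as deposited, 5 under quantile normalization, 6 under upper quartile scaling and 5 on unique reads. Genes below -1 in both numbered 13, and 70 with a pseudocount of 0.1, 6 with a pseudocount of 5, and 6 under quantile normalization (4 among the 13). A single experiment gave 1049 to 3658 genes higher, 2895 to 5494 lower, 28 to 290 above 1 and 34 to 2799 below -1; other replicates left out give no same-sign count. The cause of these changes was not tested. For the 78 named genes, 1382 fitted changes under alternatives were computed: 52 passed the threshold newly, 10 calls were lost, all of snoRNA:Psi18S-531, and 119 changes of sign occurred, of which 0 passed the threshold. DESeq2 gave no adjusted p for 26 of the genes.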

Other observations

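A pair of noncoding RNAs on the same strand of 2R, noticed after the values were seen, had more reads with Lsd1 than with IgG in experiment 2 before any scaling. CR45926 (23905334 to 23906700) had 229 unique reads with Lsd1 against 95 with IgG, and ratios of 0.15 and 2.64. CR45928 (23850330 to 23851500) had 134 unique reads with Lsd1 against 67 with IgG, and ratios of 0.17 and 2.24. In experiment 1 both were under 1 FPKM, at 0.971 FPKM with Lsd1 against 0.559 FPKM with IgG for CR45926, and 0.334 FPKM with Lsd1 against 0.0760 FPKM with IgG for CR45928.

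The tested U5 and U6 spliceosomal RNAs were listed at 0 in experiment 1 with both antibodies, so only experiment 2 measured them. There snRNA:U6:96Ac had 342 reads with Lsd1 against 8 with IgG, snRNA:U6:96Ab had 300 with Lsd1 against 11 with IgG (neither with a unique read), and snRNA:U5:63BC had 411 with Lsd1 against 40 with IgG. Of the other U5 copies, snRNA:U5:38ABa had 63 with Lsd1 against 9 with IgG, snRNA:U5:23D had 159 with Lsd1 against 133 with IgG, snRNA:U5:34A had 7 with each antibody, and snRNA:U5:14B had 0 with Lsd1 against 10 with IgG. The scaRNA:MeU4-A65, in contrast, had 0 reads with Lsd1 against 236 with IgG, none of them unique.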
